A study of Capsella grandiflora and Capsella rubella and Capsella orientalis with 27 samples.

Results

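Of 26521 gene identifiers counted in 3 species of Capsella, 11 were low in C. rubella, a self-fertilising species, in seedlings, dividing flower buds and expanding flower buds alike. They were chosen from the measured values. At each of the 3 stages, C. grandiflora and C. orientalis each had to average at least 3 CPM (CPM is the count of a gene as a part of all gene counts of its library, scaled to a common total of 1e6; mean of 3 libraries) and to lie under 2-fold apart. Each of them also had to stand at least 4-fold above C. rubella, with 0.1 CPM added to every mean before the ratios were taken. The species differences of these 11 genes are therefore described without a test. In 6 of the 11 genes C. rubella held almost no reads. In the other 5 it kept a measurable level, between 3.63% and 22.2% of the level in either of the other species. The rule did not compare stages within a species, and changes from stage to stage within a species were tested. Its conditions on level, likeness and ratio at each stage still limited the values that enter these tests.

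RNA was sequenced from seedlings and flower buds of C. rubella, of C. orientalis, both of them selfers, and of the outcrosser C. grandiflora. Each species was sampled as seedlings 10 days old, as dividing flower buds and as buds that were expanding and maturing, with 3 libraries in each of the 9 groups and 27 in all. No treatment or engineered genotype is named in the labels, which give neither the accession of the plants, the number of plants in a library nor the age of the flowering plants. P-values thus measure the spread between these libraries, which may be technical.

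Capsella belongs to the mustard family, like Arabidopsis. C. rubella separated from a C. grandiflora-like outcrossing ancestor and became self-fertile, while C. orientalis belongs to a lineage that separated earlier and became self-fertile on its own. Selfing lineages of this genus have smaller petals and less pollen per flower than the outcrosser, a combination known as the selfing syndrome. A gene alike in C. grandiflora and C. orientalis and low in C. rubella sets the closer relative and the more distant one together against C. rubella.

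Gene counts ranged from 10612848 to 40909319 per library. Summed over 9 libraries, C. rubella had 265651085 gene counts, C. grandiflora 252496798 and C. orientalis 245472916. Reads that fell outside any gene model made up 4.73% to 5.69% of listed reads in C. rubella libraries, 4.14% to 5.43% in C. grandiflora and 2.97% to 4.18% in C. orientalis. Reads that aligned to several places made up 4.03% to 7.37% in C. rubella, 4.28% to 9.44% in C. grandiflora and 6.60% to 8.93% in C. orientalis. Their part in the low counts of the 11 genes was not tested. The files do not pair identifiers with gene names, positions or sequences. The 11 genes are therefore given by identifier and without a function, and the stage labels could not be checked against marker genes.

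The rule placed the 11 genes in the upper tail of the ratio described here, so their place there is not a result. In all, 10577 genes met the conditions of level and likeness in C. grandiflora and C. orientalis. Over these genes, the smallest of the 6 ratios over C. rubella (2 species at 3 stages) had a median of 0.761, and 95% of the genes were below 1.11. This value is the lowest of 6 ratios per gene, so its median does not show which species is higher. A smallest ratio of at least 2 was reached by 22 genes, of at least 3 by 14, of at least 4 by 11 and of at least 16 by 6.

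**Figure D1:**
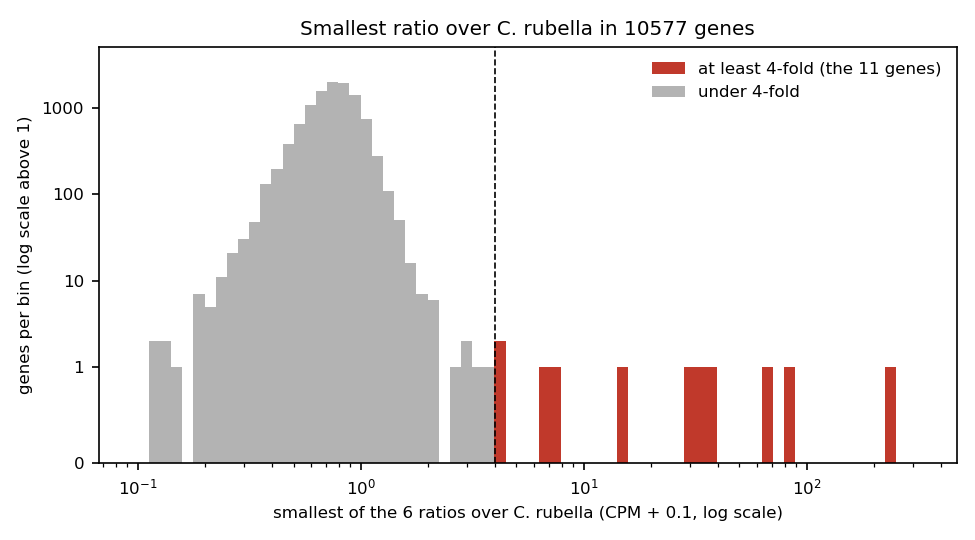
Distribution of the smallest of the 6 ratios over C. rubella (x axis, log scale, CPM + 0.1) in the 10577 genes with at least 3 CPM and under 2-fold apart in the other species; the y axis gives genes per bin, on a log scale above 1. The bulk lies around 0.761, and the 11 genes right of the dashed line at 4 (red) reach 237.

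Just inside the threshold were Carubv10015392m.g with a smallest ratio of 4.15, Carubv10020124m.g with 4.40 and Carubv10018054m.g with 6.57. Just outside were Carubv10004629m.g with 3.56, Carubv10021169m.g with 3.44 and Carubv10009838m.g with 3.15. The last of these missed the rule through expanding buds, where C. grandiflora stood 3.15-fold and C. orientalis 3.20-fold above C. rubella, while the ratios were 45.7 and 59.7 in seedlings and 137 and 144 in dividing buds.

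The same rule applied to the other species found 14 genes low in C. grandiflora and 64 low in C. orientalis, out of 10625 and 11727 genes with the required level and likeness. Those are 0.104% of the eligible genes for C. rubella, 0.132% for C. grandiflora and 0.546% for C. orientalis. The low species was under 0.1 CPM at every stage in 6 of the 11 genes (54.5%) for C. rubella, in 2 of 14 (14.3%) for C. grandiflora and in 20 of 64 (31.3%) for C. orientalis. Turned round, the rule found 26 genes high in C. rubella at every stage, against 11 high in C. grandiflora and 12 high in C. orientalis. These counts are descriptions of the lists and were not tested against each other.

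The level of every gene in every library is plotted on a log scale for the 11 genes. In all 11, every one of the 9 C. rubella libraries lay below every one of the 18 libraries of the other species, which was also the case for 174 of all 26521 genes (0.656%). The rule used the same libraries, so that count is a description. In these bulk samples, fewer cells of a type that expresses a gene and less RNA of that gene per cell cannot be told apart. A low value here means that few reads were assigned to the gene model, and whether reads of a diverged copy in C. rubella would be assigned, or whether the gene is present there, was not tested.

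**Figure D2:**
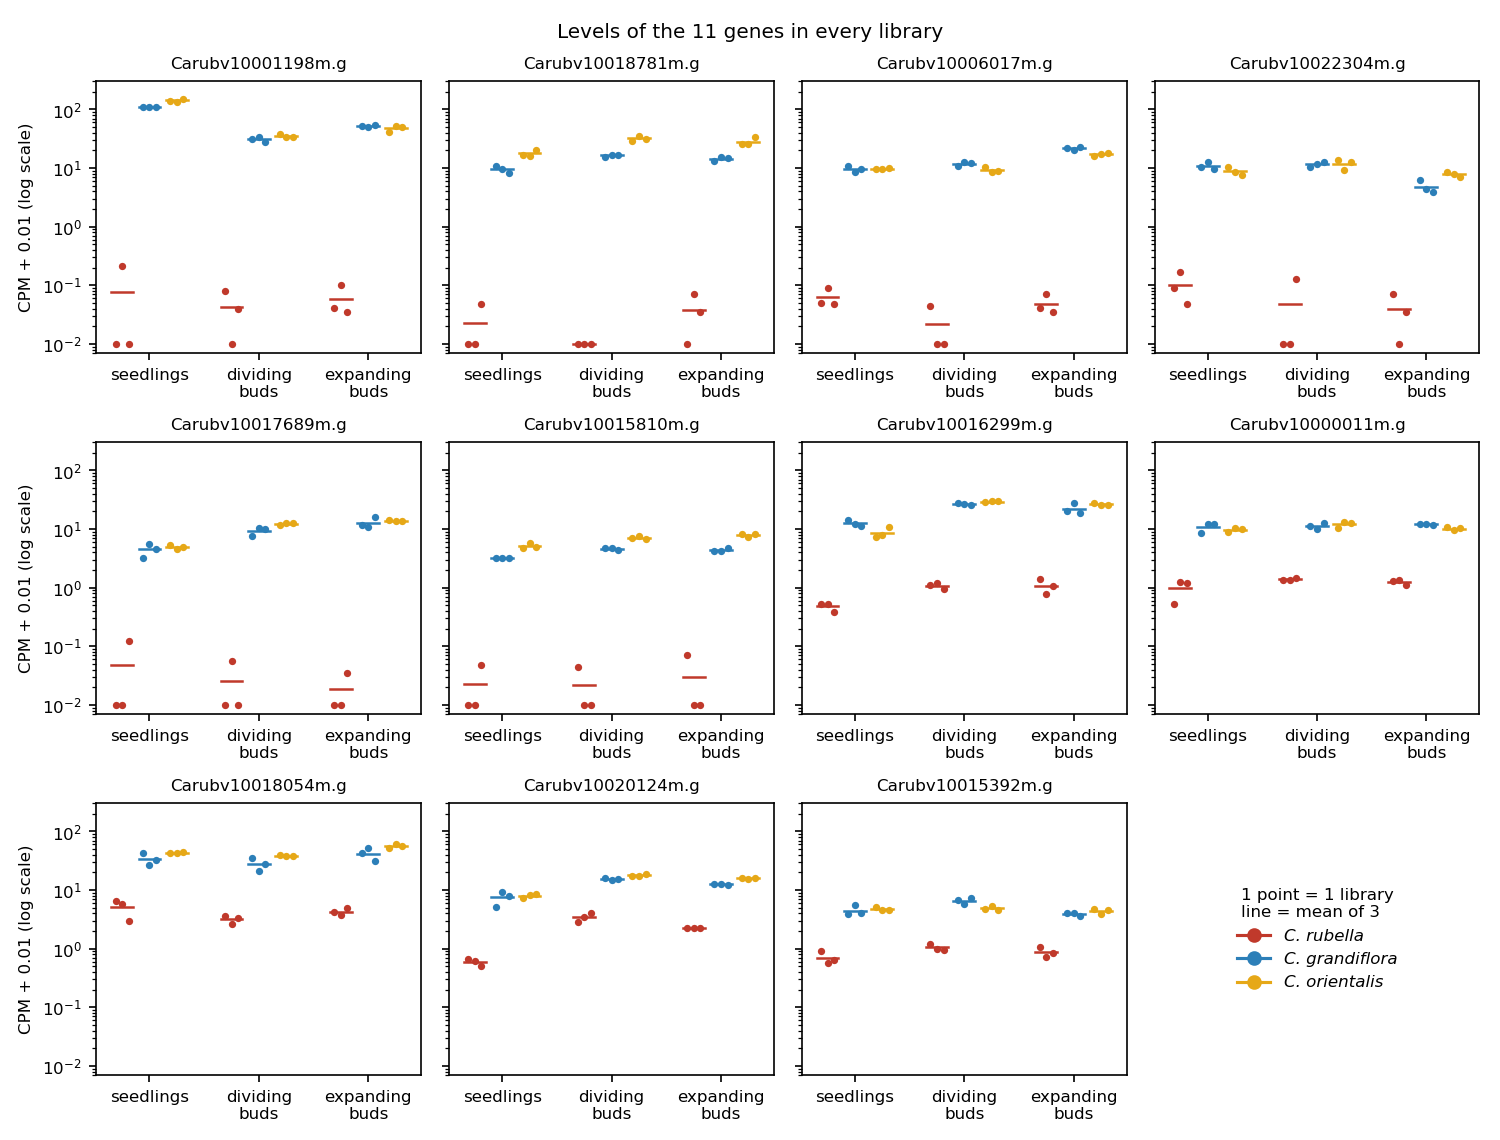
Level of each of the 11 genes (y axis, CPM + 0.01, log scale) in seedlings, dividing buds and expanding buds (x axis) of C. rubella (red), C. grandiflora (blue) and C. orientalis (yellow), with a point per library and a line at the mean of 3. In the first 6 panels C. rubella libraries stay at or below 0.2003 CPM before the constant is added; in the last 5 they lie between 0.376 and 6.55 CPM.

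The 6 genes with almost no reads in C. rubella held between 4 and 14 reads each over all 9 C. rubella libraries. Of the 54 values (6 genes in 9 libraries) 26 were 0, and the highest was 5 reads in a library. Ratios for these genes were taken from counts summed over the 9 libraries of a species, with an exact 95% interval. Such intervals cover counting error only, since reads without molecular identifiers need not be independent molecules. Deeper libraries weigh more in these sums, so the ratios also depend on how depth was spread over the stages.

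Carubv10001198m.g was the most abundant of the 11 in the other species and the one with the largest smallest ratio, 237. In C. rubella it had 0, 5 and 0 reads in the 3 seedling libraries, 2, 0 and 1 in dividing buds and 1, 3 and 1 in expanding buds. C. grandiflora libraries held 111, 109 and 112 CPM in seedlings, 31.6, 34.4 and 28.1 CPM in dividing buds and 51.2, 50.3 and 54.0 CPM in expanding buds. In C. orientalis the values were 141, 136 and 151 CPM, 38.4, 34.2 and 34.4 CPM and 40.8, 53.0 and 50.7 CPM for the same stages. Both other species were thus highest in seedlings and lowest in dividing buds, with no overlap between stages in either species. Of the 13 C. rubella reads, 5 came from a single seedling library, and the other 2 seedling libraries had 0. The C. grandiflora level was 1120.2 times (interval 655 to 2104) that of C. rubella, and the C. orientalis level 1481 times (interval 866 to 2782). Summed counts gave 54.8 CPM in C. grandiflora and 72.5 CPM in C. orientalis, where means of the libraries were 64.5 and 75.5 CPM.

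Carubv10018781m.g had 4 reads over the 9 C. rubella libraries, and none in dividing buds. Its 3 seedling libraries held 0, 0 and 1 reads and its expanding bud libraries 0, 2 and 1. C. grandiflora stood at 10.7, 9.52 and 8.18 CPM in seedlings, 15.4, 16.9 and 16.9 CPM in dividing buds and 13.2, 15.5 and 14.8 CPM in expanding buds. C. orientalis stood at 16.6, 16.1 and 20.5, 29.2, 35.9 and 31.4 and 25.7, 25.9 and 33.6 CPM. This gene lay closest to the limit on likeness, since C. orientalis was 1.87 to 1.95 times C. grandiflora at the 3 stages and the libraries of those species did not overlap at any stage. On library sizes scaled by TMM, explained below, the gene did not meet the rule. In dividing buds, 3 reads over the C. rubella group would have been 0.0356 CPM, and against that floor C. grandiflora was at least 461-fold and C. orientalis at least 903-fold higher.

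Carubv10006017m.g was spread thinly over C. rubella, with reads in 7 of 9 libraries and never more than 2 in a library. The C. rubella counts were 1, 2 and 1 in seedlings, 1, 0 and 0 in dividing buds and 1, 2 and 1 in expanding buds. In C. grandiflora it was at 10.6, 8.57 and 9.46 CPM in seedlings, 11.04, 12.5 and 12.1 CPM in dividing buds and 21.98, 20.3 and 22.5 CPM in expanding buds. The C. orientalis libraries were at 9.56, 9.81 and 9.96, 10.5, 8.73 and 8.75 and 16.2, 17.2 and 18.0 CPM. Expanding buds were the highest stage in both of these species, above every seedling and dividing bud library. The summed C. grandiflora level was 449 times (interval 236 to 982) that of C. rubella and the C. orientalis level 365 times (interval 192 to 798).

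Carubv10022304m.g had the most reads of the 6 in C. rubella, 14, with 2, 4 and 1 in seedlings, 0, 0 and 4 in dividing buds and 2, 0 and 1 in expanding buds. C. grandiflora libraries held 10.2, 12.8 and 9.76 CPM in seedlings, 10.2, 11.8 and 12.7 CPM in dividing buds and 6.31, 4.33 and 3.86 CPM in expanding buds. For C. orientalis the values were 10.4, 8.50 and 7.63, 13.7, 9.29 and 12.8 and 8.41, 7.99 and 6.95 CPM. Expanding buds were lowest in C. grandiflora, below all its other libraries, while in C. orientalis the expanding bud libraries overlapped those of seedlings. Summed, C. grandiflora was at 169 times (interval 100.3 to 309) the C. rubella level and C. orientalis at 180.1 times (interval 107 to 330.0).

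Carubv10017689m.g had 5 reads in C. rubella, of which 3 came from a single seedling library and 1 each from a dividing and an expanding bud library. In C. grandiflora it stood at 3.20, 5.65 and 4.61 CPM in seedlings, 7.46, 10.4 and 9.98 CPM in dividing buds and 11.8, 11.03 and 15.8 CPM in expanding buds. In C. orientalis it stood at 5.26, 4.48 and 5.02, 11.8, 12.8 and 12.6 and 14.2, 13.6 and 14.0 CPM. Both species rank seedlings lowest, and the C. orientalis libraries of the 3 stages did not overlap. The C. grandiflora level was 510.3 times (interval 218 to 1573) that of C. rubella, and the C. orientalis level 570.1 times (interval 244 to 1757).

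Carubv10015810m.g was the least abundant of the 6 in the other species. Its 4 C. rubella reads fell on a seedling library (1), a dividing bud library (1) and an expanding bud library (2). C. grandiflora held 3.20, 3.20 and 3.15 CPM in seedlings, close to the floor of the rule, 4.69, 4.69 and 4.47 CPM in dividing buds and 4.25, 4.22 and 4.80 CPM in expanding buds. C. orientalis held 4.73, 5.70 and 5.02, 7.14, 7.62 and 6.65 and 8.26, 7.23 and 8.28 CPM, above C. grandiflora without overlap at each stage. Relative to C. rubella, C. grandiflora was at 283 times (interval 110.1 to 1039.6) and C. orientalis at 453 times (interval 177 to 1664).

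The other 5 genes had reads in every C. rubella library, 232 to 1111 in all. Their lowest C. rubella library, at 0.376 CPM, lay above the highest one of the 6 genes with almost no reads, at 0.2003 CPM.

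Carubv10016299m.g was the lowest of the 5 relative to the other species. In C. rubella it stood at 0.526, 0.521 and 0.376 CPM in seedlings, 1.09, 1.18 and 0.929 CPM in dividing buds and 1.38, 0.786 and 1.06 CPM in expanding buds. C. grandiflora stood at 14.0, 12.3 and 11.1 CPM, 27.7, 26.4 and 25.5 CPM and 20.3, 27.5 and 18.7 CPM at these stages. C. orientalis stood at 7.39, 7.85 and 10.6, 28.6, 29.6 and 29.7 and 27.5, 25.8 and 25.8 CPM. All 3 species had their seedling libraries below every bud library. The C. rubella mean was 3.80% of C. grandiflora and 5.50% of C. orientalis in seedlings, 4.01% and 3.63% in dividing buds, and 4.85% and 4.08% in expanding buds.

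In C. rubella, libraries of Carubv10000011m.g held 0.526, 1.24 and 1.204 CPM in seedlings, 1.33, 1.37 and 1.48 CPM in dividing buds and 1.29, 1.33 and 1.09 CPM in expanding buds. In C. grandiflora the values were 8.68, 11.97 and 12.4, 11.4, 10.2 and 12.7 and 12.2, 12.4 and 11.9 CPM, and in C. orientalis 8.84, 10.3 and 9.96, 10.5, 13.0 and 12.7 and 10.7, 9.61 and 10.3 CPM. Apart from a low seedling library, C. rubella lay between 1.09 and 1.48 CPM throughout. Its means were 8.996% to 12.2% of C. grandiflora and 10.2% to 12.1% of C. orientalis.

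Carubv10018054m.g kept the highest absolute level in C. rubella. Its libraries there held 6.55, 5.85 and 2.97 CPM in seedlings, 3.54, 2.59 and 3.37 CPM in dividing buds and 4.18, 3.69 and 4.90 CPM in expanding buds. In C. grandiflora they held 42.7, 26.9 and 33.1, 34.7, 20.9 and 27.9 and 42.1, 51.6 and 31.2 CPM, and in C. orientalis 42.5, 43.1 and 44.9, 39.2, 38.1 and 37.8 and 52.7, 60.4 and 57.6 CPM. The C. grandiflora libraries of 1 stage were widely spread, with a coefficient of variation (SD over mean) of 23.2% to 24.9%, against 1.89% to 6.89% in C. orientalis. In C. rubella a single seedling library, at 2.97 CPM, lay below the other 2 and overlapped the dividing buds. The C. rubella means were 15.0% of C. grandiflora in seedlings, 11.4% in dividing buds and 10.2% in expanding buds, and 11.8%, 8.25% and 7.48% of C. orientalis.

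Carubv10020124m.g had a level that depended on the stage in each species. It was at 0.647, 0.601 and 0.489 CPM in C. rubella seedlings, 2.88, 3.44 and 4.04 CPM in dividing buds and 2.24, 2.24 and 2.22 CPM in expanding buds, with no overlap between the stages. C. grandiflora stood at 5.12, 9.23 and 8.06, 15.8, 15.1 and 15.6 and 12.8, 12.6 and 12.005 CPM. C. orientalis stood at 7.43, 8.13 and 8.63, 17.4, 17.5 and 18.5 and 15.95, 15.3 and 15.99 CPM. In both of these species the stages had the same order in CPM as in C. rubella, also without overlap. The order of the 2 bud stages in these species depended on the scaling. On library sizes scaled by TMM, the log2 fold of expanding against dividing buds was -0.01 in C. grandiflora and -0.02 in C. orientalis, neither called. Relative to C. grandiflora the C. rubella mean was 7.75% in seedlings, 22.2% in dividing buds and 18.0% in expanding buds, and relative to C. orientalis it was 7.18%, 19.4% and 14.2%.

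Carubv10015392m.g, the gene closest to the threshold, was at 0.890, 0.561 and 0.640 CPM in C. rubella seedlings, 1.19, 0.990 and 0.958 CPM in dividing buds and 1.04, 0.725 and 0.834 CPM in expanding buds. In C. grandiflora it was at 3.88, 5.47 and 4.03, 6.63, 5.73 and 7.45 and 4.13, 4.05 and 3.57 CPM, and in C. orientalis at 5.16, 4.53 and 4.52, 4.73, 5.32 and 4.55 and 4.73, 3.90 and 4.62 CPM. The C. rubella means were 15.6% to 22.2% of C. grandiflora and 14.7% to 21.5% of C. orientalis.

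**Figure D3:**
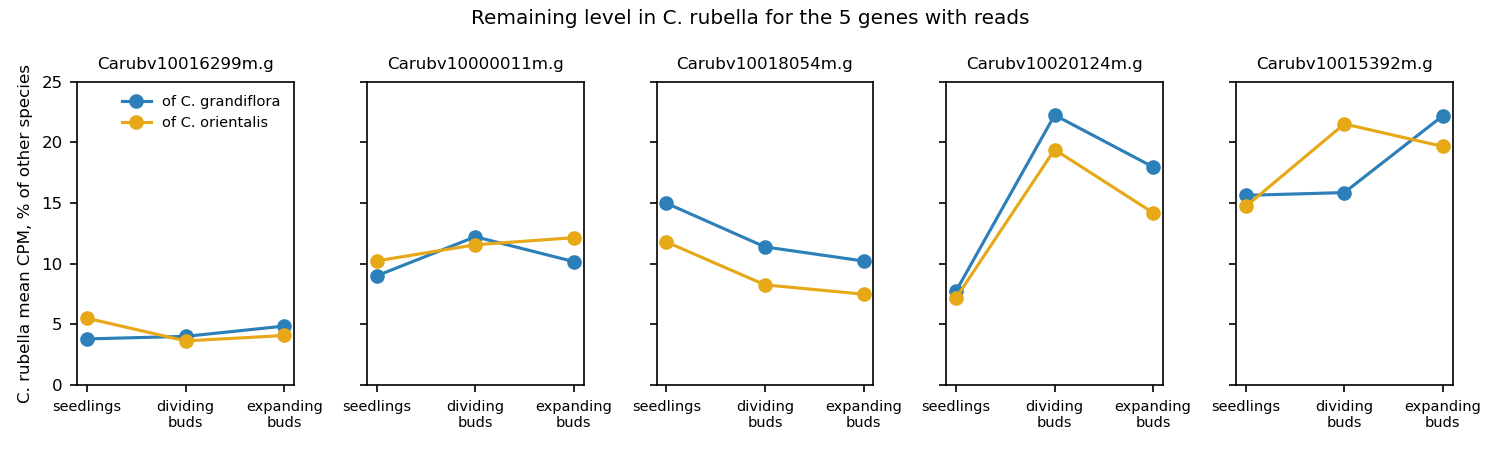
Mean C. rubella level as a percentage of the mean level in C. grandiflora (blue) and in C. orientalis (yellow) at each stage (x axis) for the 5 genes with reads in every C. rubella library. Carubv10016299m.g stays between 3.63% and 5.50%, and Carubv10020124m.g lies at 7.18% and 7.75% in seedlings and at 14.2% to 22.2% in buds.

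Stage changes within a species were tested with edgeR's quasi-likelihood test on all 23186 genes that passed its filter on low counts, with Benjamini-Hochberg adjustment over all of them. All 11 genes passed this filter. The 6 genes with almost no reads in C. rubella did so through the other species. Carubv10016299m.g, Carubv10018054m.g and Carubv10020124m.g, which had called stage changes in C. rubella, also passed it in a fit of C. rubella alone. For Carubv10000011m.g and Carubv10015392m.g this is not given here. Their lowest C. rubella libraries, at 0.526 and 0.561 CPM, lay above the lowest of Carubv10016299m.g, at 0.376 CPM. A gene was called at an adjusted p under 0.05, and a log2 fold of 1 is a doubling. The SE given with a fold was worked back from the test, as the size of the log2 fold over the square root of its F statistic. Most of the tested genes were called between stages, so the counts are set beside the share called over all tested genes.

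In C. grandiflora, 5 of the 11 genes were higher (35.9% of all tested genes) and 2 lower (36.1%) in expanding than in dividing buds. Expanding buds stood above seedlings for 6 (40.1%) and below for 2 (36.9%), and in dividing buds 4 were above seedlings (40.3%) and 2 below (36.5%). In C. orientalis, 3 were higher (28.7% of all tested genes) and 0 lower (30.3%) in expanding than in dividing buds. Expanding buds were above seedlings for 5 (39.1%) and below for 3 (31.2%), and dividing buds above for 4 (40.8%) and below for 4 (33.5%). In either direction, 7 of the 11 genes were called in C. grandiflora for expanding over dividing buds (72% of all tested genes), 8 for expanding buds over seedlings (77%) and 6 for dividing buds over seedlings (76.8%). In C. orientalis the counts were 3 (59%), 8 (70.3%) and 8 (74.3%). For expanding over dividing buds of C. orientalis, DESeq2 called 5 genes, and a fit of that species alone called 6.

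**Figure D4:**
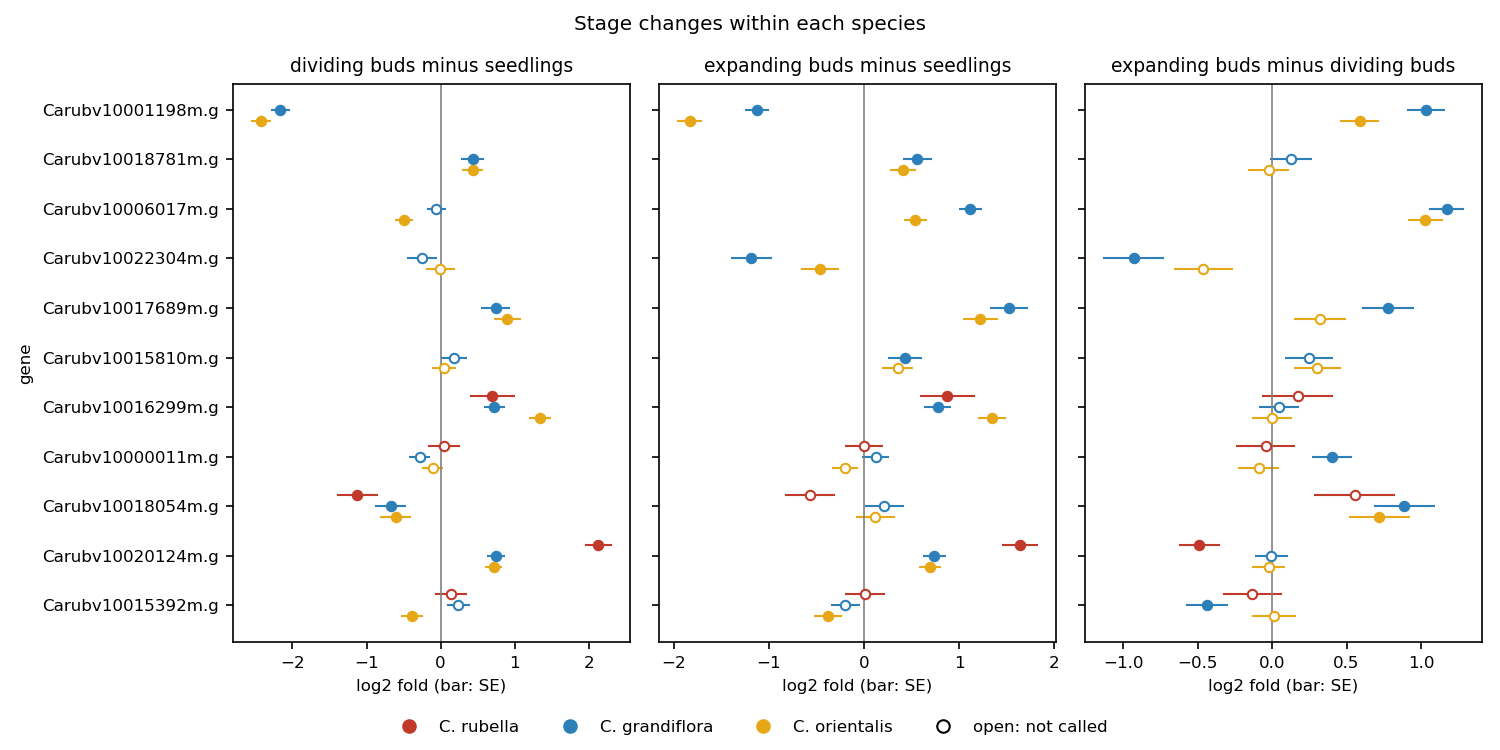
Fitted log2 folds between stages within C. rubella (red), C. grandiflora (blue) and C. orientalis (yellow) for the 11 genes, with bars of 1 SE; filled points passed an adjusted p under 0.05. C. rubella is drawn for the 5 genes with reads in every library, and its largest log2 fold is 2.13, for Carubv10020124m.g in dividing buds against seedlings.

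Carubv10001198m.g had the largest stage changes. In dividing buds against seedlings its log2 fold was -2.16 (SE 0.13, adjusted p = 2.27e-13) in C. grandiflora and -2.42 (SE 0.13, adjusted p = 2.76e-14) in C. orientalis. In expanding against dividing buds it rose by 1.03 (SE 0.13) in C. grandiflora and by 0.59 (SE 0.13) in C. orientalis. Carubv10006017m.g rose about as much at that step, with a log2 fold of 1.17 (SE 0.12, adjusted p = 2.46e-09) in C. grandiflora and 1.03 (SE 0.12, adjusted p = 6.43e-08) in C. orientalis. Carubv10017689m.g was higher in expanding buds than in seedlings, at 1.53 (SE 0.20, adjusted p = 1.61e-07) in C. grandiflora and 1.22 (SE 0.19, adjusted p = 2.24e-06) in C. orientalis. The gene that fell most between the bud stages was Carubv10022304m.g in C. grandiflora, at -0.93 (SE 0.20, adjusted p = 0.000247). Its value in C. orientalis, -0.46 (SE 0.20), was not called. Carubv10016299m.g was higher in buds than in seedlings of both, at 0.73 (SE 0.14) in C. grandiflora and 1.34 (SE 0.14) in C. orientalis for dividing buds.

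The fitted folds use library sizes scaled by TMM, a trimmed mean that puts most genes near no change, and they differ from ratios of the CPM values. With library totals alone, the median over all tested genes moved by 0.45 on the log2 scale in dividing buds against seedlings of C. rubella, by 0.35 in C. grandiflora and by 0.43 in C. orientalis. In expanding against dividing buds it moved by -0.12 in C. rubella, by -0.31 in C. grandiflora and by -0.15 in C. orientalis. On that scale the genes higher and lower in dividing buds than in seedlings numbered 3 and 1 of the 11 in C. rubella (55.6% and 25.6% of all tested genes), 7 and 1 in C. grandiflora (52.6% and 28.2%), and 5 and 1 in C. orientalis (55.7% and 24.6%). In expanding against dividing buds they numbered 0 and 1 in C. rubella (28.2% and 37.4%), 4 and 3 in C. grandiflora (26.1% and 48.2%), and 3 and 1 in C. orientalis (23.1% and 40.0%). In expanding buds against seedlings they numbered 2 and 0 in C. rubella (54.4% and 25.3%), 6 and 2 in C. grandiflora (40.9% and 35.4%), and 6 and 1 in C. orientalis (51.4% and 24.8%). Small folds are thus relative to the bulk of genes, and Carubv10015392m.g in C. orientalis, at -0.39 in dividing buds against seedlings, changed sign to 0.04.

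The stage changes of the 11 genes ran alike in C. orientalis and C. grandiflora. Across the 11 genes, the log2 folds of the species means (CPM + 0.5) correlated with Pearson's r = 0.893 and Spearman's rho = 0.773 for expanding against dividing buds. For expanding buds against seedlings r was 0.880 and rho 0.945, and for dividing buds against seedlings r was 0.949 and rho 0.891. These are descriptions over 11 genes that share the same 18 libraries. Over the 10577 genes of the required level and likeness r was 0.867, 0.846 and 0.906, close to the values of the 11 genes. The limit of 2-fold between these species at each stage also bounds how far their stage changes can differ.

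In C. rubella the 6 genes with almost no reads gave no usable stage change, and none of them was called. Of all 11, 2 were higher (40.8% of all tested genes) and 1 lower (35.5%) in dividing buds than in seedlings. In expanding buds against seedlings 2 were higher (43.3%) and 0 lower (33.6%), and against dividing buds 0 were higher (34% of all tested genes) and 1 lower (30.3%). In either direction these were 1 for expanding over dividing buds (64.3% of all tested genes), 2 for expanding buds over seedlings (76.9%) and 3 for dividing buds over seedlings (76.3%), and 6 of the 11 genes held 14 reads or fewer in all. Carubv10016299m.g had a log2 fold of 0.87 (SE 0.29, adjusted p = 0.00861) in expanding buds and 0.70 (SE 0.30, adjusted p = 0.0381) in dividing buds against seedlings, the same direction as in the other species. The second of these calls was lost under 7 of 12 alternatives, with adjusted p up to 0.167, and the first under 1, without a C. rubella seedling library (adjusted p = 0.0594). Carubv10018054m.g was lower in dividing buds than in seedlings in C. rubella, at -1.12 (SE 0.28, adjusted p = 0.000808), and was also lower in C. grandiflora, at -0.68 (SE 0.21), and in C. orientalis, at -0.61 (SE 0.21). In C. grandiflora that call was lost without the highest seedling library, where the log2 fold was -0.41 (adjusted p = 0.0962), and with library totals alone it was lost in C. grandiflora (adjusted p = 0.149) and in C. orientalis (adjusted p = 0.397). Of the 5 genes with reads in every C. rubella library, Carubv10000011m.g and Carubv10015392m.g passed no stage test there.

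Carubv10020124m.g was 4.38-fold higher in dividing buds than in seedlings of C. rubella, a log2 fold of 2.13 (SE 0.18, adjusted p = 1.34e-10). The folds were 1.68 in C. grandiflora and 1.65 in C. orientalis, log2 folds of 0.75 (SE 0.12) and 0.72 (SE 0.12). In expanding buds against seedlings its log2 fold was 1.64 (SE 0.19) in C. rubella, 0.74 (SE 0.12) in C. grandiflora and 0.70 (SE 0.12) in C. orientalis. Between the bud stages it fell by 0.49 on the log2 scale in C. rubella expanding buds (SE 0.14, adjusted p = 0.0034), and was at -0.01 (SE 0.11) in C. grandiflora and -0.02 (SE 0.11) in C. orientalis, neither of them called.

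Whether a stage change differed between species was tested as an interaction in the same fit, a test chosen after the values had been seen. The rule set a lower bound on each ratio over C. rubella but not on how the ratio varied between stages. Differences with C. rubella compare the same ratios that chose the genes, so their p-values are descriptive and not independent of that choice. The rise of Carubv10020124m.g in dividing buds over seedlings was larger in C. rubella than in C. grandiflora by 1.38 (SE 0.23, adjusted p = 4.79e-05) on the log2 scale, and larger than in C. orientalis by 1.41 (SE 0.22, adjusted p = 1.62e-05). For expanding buds over seedlings the difference was 0.90 (SE 0.23, adjusted p = 0.00319) against C. grandiflora and 0.94 (SE 0.23, adjusted p = 0.00149) against C. orientalis. No other of the 11 genes was called in these 4 comparisons with the main settings, which called 30.9%, 40.6%, 38.1% and 43.6% of all tested genes. All 4 differences were called under each of 17 alternatives. Every C. rubella seedling library of this gene held 13 to 16 reads, a depth at which counting error is part of the seedling value. Between the bud stages 0 of the 11 genes were called in C. rubella against C. grandiflora (23% of all tested genes) and 0 against C. orientalis (23.1%). In each of those comparisons 1 gene, Carubv10020124m.g, had an unadjusted p under 0.05. Its difference was -0.48 (adjusted p = 0.0516) against C. grandiflora and -0.47 (adjusted p = 0.0593) against C. orientalis. DESeq2 called this gene in both comparisons, and with RLE scaling it was called against C. grandiflora (adjusted p = 0.0405). Carubv10018054m.g was called under some alternatives for expanding buds over seedlings. Against C. grandiflora its difference was -0.85 with RLE scaling (adjusted p = 0.048), -0.87 with DESeq2 (adjusted p = 0.0292), -0.94 without C. grandiflora expanding bud replicate 3 (adjusted p = 0.0304), -1.05 without C. grandiflora seedling replicate 1 (adjusted p = 0.014) and -1.08 without C. rubella seedling replicate 3 (adjusted p = 0.00774). Against C. orientalis it was called without C. rubella seedling replicate 3, at -0.98 (adjusted p = 0.0113), and so was its difference for dividing buds over seedlings, at -0.81 (adjusted p = 0.0438). Over all alternatives the count of called genes in the 4 comparisons with seedlings ran from 1 to 2 for dividing buds and from 1 to 3 for expanding buds, against either species. The count was 3 for expanding buds without C. rubella seedling replicate 2 against either species, and with DESeq2 against C. grandiflora. In these settings the called genes other than Carubv10020124m.g and Carubv10018054m.g were genes with almost no C. rubella reads. For expanding over dividing buds it was 1 without C. rubella dividing bud replicate 1, against either species. Between C. orientalis and C. grandiflora the stage change of 2 of the 11 genes differed for dividing buds over seedlings (33.7% of all tested genes), of 4 for expanding buds over seedlings (44.2%) and of 1 for expanding over dividing buds (34.7%). These counts depended on single libraries. The count of 2 ranged from 0 to 3 with 1 library left out, at 0 without C. orientalis seedling replicate 1 and at 1 without C. orientalis seedling replicate 2, C. orientalis dividing bud replicate 3, C. grandiflora seedling replicate 3 or C. grandiflora dividing bud replicate 3. The count of 4 ranged from 2 to 4, at 2 without C. orientalis seedling replicate 2, C. grandiflora seedling replicate 1 or C. grandiflora expanding bud replicate 3. The count of 1 fell to 0 without any 1 of 8 libraries: C. orientalis expanding bud replicates 1 and 3 and dividing bud replicates 2 and 3, and C. grandiflora expanding bud replicates 1, 2 and 3 and dividing bud replicate 1.

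Replicate libraries of the 11 genes had a larger median spread than those of other genes in each group, a difference that was not tested. The median coefficient of variation over the 11 genes ranged from 7.79% to 15.0% in the 3 C. grandiflora groups, where the 10577 genes of the required level had medians of 5.17% to 11.9%. In C. orientalis it was 6.79% to 7.78%, against 4.20% to 6.69%. In C. rubella, where the 6 genes rest on single reads, it was 45.1% to 61.7%, against 4.52% to 10.5%. The 61.7%, in dividing buds, leaves out Carubv10018781m.g, which had no reads there and so no coefficient of variation. The 11 genes include low ones, for which counting error is a larger part of the spread, and these medians were not compared at matched levels.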

How the data were processed

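Whole-number read counts per gene identifier were deposited by the authors, 1 file per library for 27 libraries. Reads were trimmed with Trimmomatic and counted with HTSeq, per the submitters' processing notes. The aligner, genome build, annotation and strand setting were not given in the sources used here, and how well reads of each species matched the gene models was not tested. Reads shared by several genes or aligned to several places were listed apart from the gene counts, so near-identical or overlapping genes may lose reads. TruSeq libraries of total RNA gave single-end reads of 50 cycles, per the labels' protocols.

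The 5 summary lines of each file were left out. Of all listed reads, those shared by several genes made up 3.67% to 4.65%. The lines for low alignment quality and for unaligned reads were 0 in every library, which does not show that every read aligned. The share of reads that aligned in each species is not known here. Shares of the other lines are given in the results. CPM is the count divided by the library's sum over 26521 genes, times 1e6. Library sums of 10612848 to 40909319 make 1 read worth less than 0.1 CPM. No replicate pair agreed within sampling noise, with chi-square per degree of freedom of 5.14 to 43.0 over 27 pairs. Species differences chose the genes and were not tested. Stage contrasts were tested with edgeR 4.0.16 (R 4.3.3) on the counts, with filterByExpr, TMM and the quasi-likelihood test in 1 fit of 9 group means, and Benjamini-Hochberg adjustment. The step was checked on simulated counts in which all genes had the same spread beyond counting error. That check did not cover small folds, a spread that differs between genes, or genes chosen for a low C. rubella level. Differences of stage changes between species and the fit on library totals alone were added after seeing the data. Alternatives were RLE scaling, no filter, a replicate block, 1 species at a time, each library left out and DESeq2 1.42.0. Tables and plots used Python 3.11.15, pandas 2.3.3, NumPy 2.4.6, SciPy 1.17.1 and matplotlib 3.10.9.

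All 11 genes are named. The rule for other names took the 3 genes just outside the threshold. The genes, lists and tests were chosen with earlier results of these data known. Gene lists (17) and stage markers by product name matched 0 identifiers, since no names come with them.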

Additional observations from a re-analysis of the deposited data

Results flagged for a closer look

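In 11 cases, a stage change of 1 of the 11 genes differed between species in edgeR's quasi-likelihood interaction test with Benjamini-Hochberg adjustment. These tests were chosen after the data had been seen. Those with C. rubella compare ratios that chose the genes, so their p-values are not independent of that choice. All values are differences of log2 folds, taken as the species named first minus the other, so a positive value means a fold that is more positive, or less negative, in the species named first.

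Carubv10020124m.g changed more in C. rubella than in C. grandiflora, by 1.38 for dividing buds over seedlings and by 0.90 for expanding buds over seedlings. The same gene changed more in C. rubella than in C. orientalis, by 1.41 and 0.94 for these stages, and every C. rubella bud library was above every C. rubella seedling library.

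The other 7 cases set C. orientalis against C. grandiflora. For expanding buds over seedlings, Carubv10001198m.g, lower in expanding buds in both species, differed by -0.71 (adjusted p = 0.00252) and was called under 17 of 17 alternatives. Carubv10006017m.g differed by -0.58 (adjusted p = 0.00799) and was called under 16 of 17. Carubv10016299m.g differed by 0.57 for expanding buds over seedlings, called under 12 of 17 alternatives, and by 0.62 for dividing buds over seedlings, called under 14 of 17. Both of these calls were lost without the highest C. grandiflora seedling library, with adjusted p of 0.118 and 0.0989. Carubv10015392m.g differed by -0.63 for dividing buds over seedlings (adjusted p = 0.0221), called under 12 of 17. Carubv10022304m.g, with a log2 fold of -0.47 in C. orientalis and -1.19 in C. grandiflora, differed by 0.72 for expanding buds over seedlings (adjusted p = 0.0491), called under 7 of 17. Carubv10000011m.g differed by -0.49 for expanding over dividing buds (adjusted p = 0.0487), called under 5 of 17. The limit of 2-fold between C. orientalis and C. grandiflora at each stage bounded these differences from above.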

How the results depend on the processing

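The number of genes chosen, 11, was 7 at 8-fold over C. rubella, 27 at a floor of 1 CPM, 2 at a floor of 10 CPM and 10 to 12 with 1 library left out. On TMM library sizes it was 14, of which 10 were shared, and Carubv10018781m.g was lost. The same was the case on RLE library sizes. The 3 genes called in C. orientalis for expanding over dividing buds were 6 with that species alone and 5 with DESeq2. In C. rubella for the same stages the count was 1, and 1 to 2 with 1 library left out (2 without expanding bud replicate 1, where Carubv10018781m.g was also called). The other counts of genes called in a stage comparison stayed within 1.5 times; counts of differences between species moved further. Over all alternatives those ranged from 0 to 1 (expanding over dividing buds), 1 to 3 (expanding buds over seedlings) and 1 to 2 (dividing buds over seedlings) for C. rubella against either species, and from 0 to 2, 2 to 4 and 0 to 3 for C. orientalis against C. grandiflora. Of 552 refitted values of the 46 called stage folds, 517 stayed called, 34 were lost and 1 was reversed, Carubv10015392m.g in C. orientalis dividing buds over seedlings, at 0.0367 with library totals alone. Of 187 refitted values of the 11 differences between species, 151 stayed called and 36 were lost. RLE scaling moved the median of all genes by at most 0.085 on the log2 scale in a stage contrast.

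With the replicate number as a block, 1, 2 and 3 of the 11 genes were called in C. rubella for expanding over dividing buds, expanding buds over seedlings and dividing buds over seedlings, 7, 8 and 6 in C. grandiflora, and 4, 8 and 8 in C. orientalis. The numbers do not pair the samples: of 27 pairs of libraries with the same number, 3 had deviations that correlated above 0.1, and 7 correlated best with their own number.

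Depth limits the 6 genes with 4 to 14 C. rubella reads, whose C. rubella stage changes and ratios rest on single reads. Position, copies, gene names and lists were not analysed here for want of an annotation.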
